A study of Juglans regia with 15 samples.

Results

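The later part of endopleura development in common walnut (Juglans regia) was described by setting 3 libraries from 147 days after pollination (DAP) against 3 libraries from 91 DAP, 6 of the 15 libraries of the series. The members were chosen by the stage in the sample labels alone. Both groups are endopleura, the thin seed coat that covers the kernel, of the cultivar "Linzaoxiang", and no group carries a treatment or a genotype of its own. The 147 DAP and 91 DAP endopleuras, and those of 119 DAP that were used to place a change in time, were collected and sequenced in the same way, and each library was made from a pool of 7 nuts. The remaining libraries, from 35 and 63 DAP, entered the fit as their own stages. They therefore share in its estimate of spread and in the choice of genes tested. Their own values are used here only to say at which stage a gene's mean was highest or lowest. A library is a pool, so its value is an average over nuts. The p-values rest on the spread between pools of the same stage, estimated over all 15 libraries together.

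A walnut seed coat is known for its phenolic compounds, above all condensed tannins, which are built from flavonoid precursors. Chalcone synthase opens the flavonoid pathway, and anthocyanidin reductase, known in Arabidopsis as BANYULS, makes the epicatechin units of condensed tannins in the seed coat. As a seed matures, storage protein and oil synthesis come to an end in the embryo, and late embryogenesis abundant (LEA) proteins and other desiccation-related transcripts accumulate.

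Expression was given as FPKM, the number of sequenced fragments of a gene scaled to its length and to the mapped fragments of its library. A gene was tested when 3 or more of the 15 libraries had 1 FPKM or more. Changes are differences of mean log2(FPKM + 1), tested with limma and called at an adjusted p under 0.05 over the 22310 tested genes. The added 1 shrinks the change of genes with low FPKM. The tissue label was set against marker genes. JrANR, the only seed coat marker used, had 706, 1058 and 661 FPKM at 147 DAP, against 103, 110.2 and 109 FPKM at 91 DAP. The study also reports moderate, stable JrANR expression in embryo, so its presence alone does not establish the tissue. Transcripts of 4 embryo marker genes, 2 glutelins, an oleosin and the fatty acid desaturase JrFAD2, were present in every one of these libraries. Their summed FPKM was 1708, 1926 and 3043 at 147 DAP and 9975, 4970 and 7094 at 91 DAP. At 119 DAP the sum was 6310 in replicate 1 and 3495 in replicate 3, and 19888 in replicate 2, which stands apart. Of the 3 green tissue markers, the Rubisco small subunit JreChr15G10361 stayed below 1 FPKM in these 9 libraries, and the 2 chlorophyll a/b binding proteins are described below. Summed FPKM of a library ran from 851621 to 1113620 over the series. The 10 most abundant genes held 22.2% to 28.2% of it at 147 DAP and 18.6% to 18.8% at 91 DAP.

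Expression differed at 147 DAP from 91 DAP in 11157 of the 22310 tested genes (50.0%), with 4606 genes higher (20.6%) and 6551 lower (29.4%) at 147 DAP. The absolute log2 change was at least 1 in 2493 of the higher and 2546 of the lower genes, and at least 3 in 378 and 193 genes. Fewer genes were higher, but the changes of at least 3 were mostly rises. Over all tested genes the median log2 change was -0.10. Changes and calls of single genes are given without subtracting it. With median-ratio scaling this median was -0.01 and 49.9% of the called genes were higher, in place of 41.3%, so the surplus of lower genes depends on how the libraries are scaled. The libraries of 147 and 91 DAP did not overlap in 12587 genes (56.4%), of which 5161 were higher (23.1%) and 7426 lower (33.3%) at 147 DAP.

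At 119 DAP 4082 genes differed from 91 DAP (18.3%), 2152 higher (9.65%) and 1930 lower (8.65%). At 147 DAP 8018 genes differed from 119 DAP (35.9%), 3153 higher (14.1%) and 4865 lower (21.8%). The balance of directions in the earlier step turned on the processing. The counts for 119 against 91 DAP were 1722 higher and 2189 lower after rescaling to equal sums and 2003 and 2567 with quantile normalization. They were 1637 and 1723 with a filter at a mean FPKM of 5, and 1444 and 1515 without replicate 1 of 119 DAP. For 147 against 119 DAP lower genes outnumbered higher ones in every alternative, but the surplus was small with median-ratio scaling (4009 higher and 4169 lower). Both steps use the 119 DAP libraries, so their counts are not independent of one another. For each gene that changed between 147 and 91 DAP, the 2 steps were compared directly by testing the later step minus the earlier one. The change was placed after 119 DAP where the later step was larger in the direction of the whole change, and before 119 DAP where the earlier step was larger. Of the 4606 higher genes, 728 were placed after 119 DAP (15.8%, or 3.26% of the genes tested) and 272 before (5.91%, or 1.22%). Of the 6551 lower genes, 1013 were placed after 119 DAP (15.5%, or 4.54% of the genes tested) and 242 before (3.69%, or 1.08%). Over all tested genes, 7.80% changed and were placed after 119 DAP, and 2.30% changed and were placed before. For 3606 higher genes (78.3%) and 5296 lower genes (80.8%) the steps could not be told apart in size, which does not show that they were equal. Without replicate 1 of 119 DAP, 1315 genes were placed in either direction in place of 2255.

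**Figure D1:**
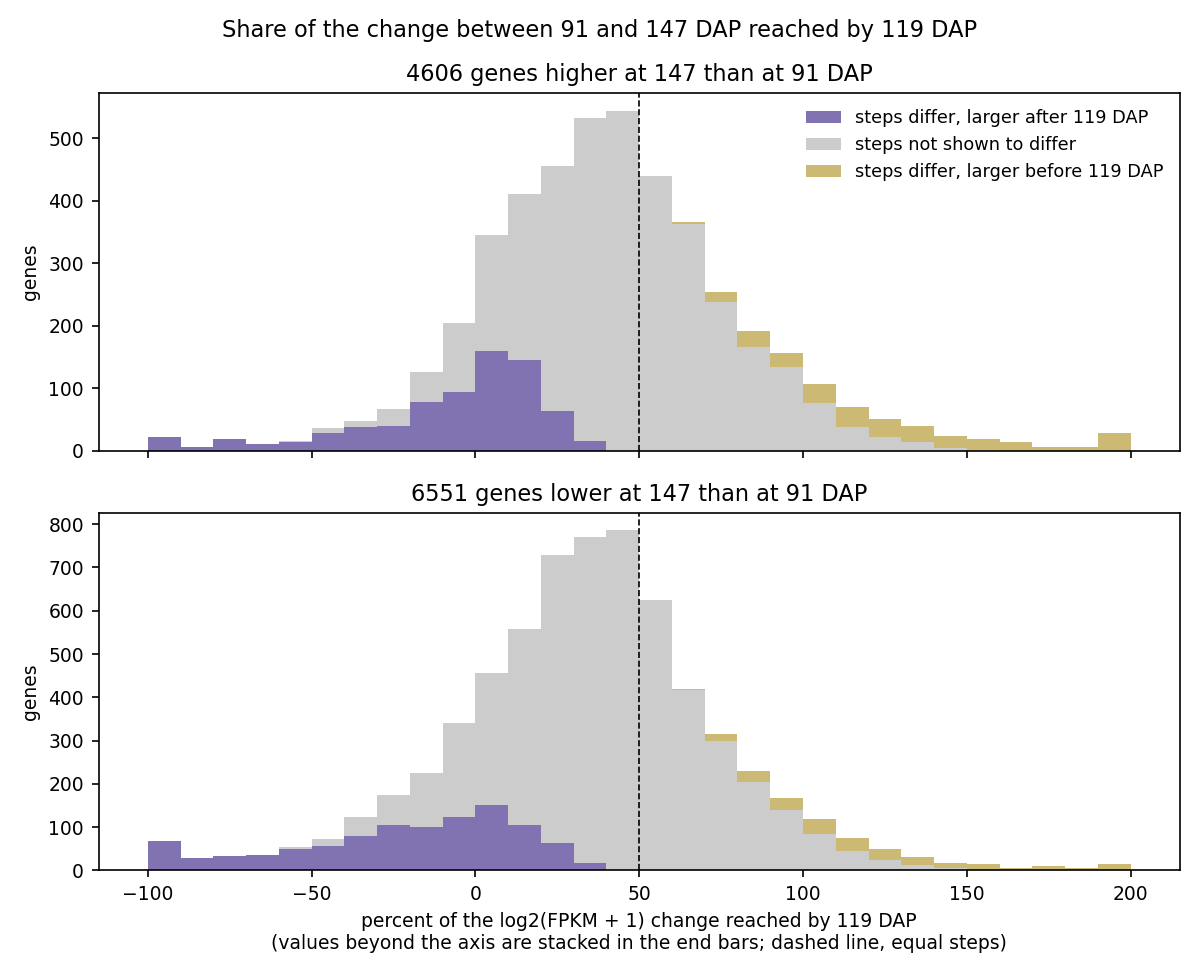
Number of genes (y axis) by the percent of the log2(FPKM + 1) change between 147 and 91 DAP that had been reached by 119 DAP (x axis), for genes higher (top) and lower (bottom) at 147 DAP; colors give the placement of the change, grey where the steps were not shown to differ. The median gene had reached 40.2% of its change by 119 DAP among the higher genes and 34.7% among the lower ones, left of the dashed line that marks equal steps.

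By 119 DAP the median higher gene had reached 40.2% of its change and the median lower gene 34.7%, as the plot of shares shows. In some genes the mean at 119 DAP lay outside the interval between the 2 outer stages, but few of these reversals passed the test. Among all changed genes, the step before 119 DAP was called against the whole change in 21 higher and 85 lower genes, and the step after it in 40 higher and 20 lower genes. A further 479 genes changed in both steps but not between 147 and 91 DAP, of which 325 were highest and 154 lowest at 119 DAP. Among them was the adenylyltransferase JreChr04G11920, which makes ADP-glucose for starch. It is annotated as a large subunit but has the Arabidopsis small subunit gene AT5G48300 as its closest homolog. It had 94.1, 99.9 and 77.2 FPKM at 147 DAP and 95.1, 96 and 89 FPKM at 91 DAP. All 3 libraries of 119 DAP were higher, with 149, 168 and 139 FPKM. Over the 5 stages of the series, 3191 of the 4606 higher genes (69.3%) had their highest mean at 147 DAP, against 20.8% of all tested genes, and 5175 of the 6551 lower genes (79.0%) had their lowest there, against 38.4%. These genes were chosen for lying above or below 91 DAP, which raises both shares by construction.

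Gene names are at hand for a minority of genes, those in the supplementary lists of genes in selected, climate-associated or trait-associated regions of the genome. Of the 1774 tested genes with such an annotation, 337 were higher and 534 lower at 147 DAP (49.1% called). Of the 10 genes with the largest changes, 5 in each direction, 9 are outside these lists and carry no name here. The 5 largest rises were those of JreChr07G12234, JreChr05G11728, JreChr06G11292, JreChr14G11081 and JreChr10G10929. JreChr07G12234, on chromosome 7 from 35445666 to 35448447, had 1188, 561 and 766 FPKM at 147 DAP, against 1.10, 4.91 and 0.658 FPKM at 91 DAP (log2 change 8.19, standard error 0.53, adjusted p = 4.01e-08). JreChr06G11292 and JreChr14G11081 rose by 7.82 and 7.72 on the log2 scale. JreChr05G11728 had 408, 191 and 190.4 FPKM at 147 DAP and was listed at 0, 0 and 0.125 FPKM at 91 DAP. It was still between 0.0702 and 0.394 FPKM at 119 DAP, so its change was placed after 119 DAP (step difference 7.47, adjusted p = 8.35e-07). JreChr10G10929 was listed at 0 in all 3 libraries of 91 DAP and had 391, 130.4 and 141 FPKM at 147 DAP.

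The 5 largest falls were those of JreChr07G12288, JreChr09G11293, JreChr13G12088, JreChr04G11098 and JreChr11G10150, and all 5 were placed after 119 DAP. JreChr07G12288, on chromosome 7 from 35847631 to 35850405, had 6.90, 14.8 and 29.3 FPKM at 147 DAP, against 3068, 2922 and 2444 FPKM at 91 DAP (log2 change -7.49, standard error 0.43, adjusted p = 1.42e-08). At 119 DAP it still had 1415, 1305 and 1268 FPKM, and the step after 119 DAP was the larger one (step difference -5.34, adjusted p = 5.00e-04). In the other 4 genes the 91 DAP libraries differed widely among themselves. JreChr09G11293, for example, had 1745 and 1153 FPKM in replicates 1 and 2 of 91 DAP and 114 FPKM in replicate 3, against 0.660, 12.4 and 0.856 FPKM at 147 DAP. Replicate 3 was the lowest 91 DAP library in each of the 4, but above every 147 DAP library. The placement of JreChr09G11293 and JreChr11G10150 was lost without replicate 1 or 2 of 119 DAP or replicate 1 or 3 of 147 DAP (highest adjusted p = 0.0907 and 0.104). That of JreChr13G12088 was lost without any 1 library of 119 DAP or replicate 1 or 3 of 147 DAP (highest adjusted p = 0.127).

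The most abundant transcripts also turned over. Of the 10 genes with the highest mean FPKM at 147 DAP and the 10 at 91 DAP, 2 were shared. JreChr12G11251, first in rank at 91 DAP with a mean of 60030.0 FPKM, averaged 3863 FPKM at 147 DAP. JreChr09G11777, with rank 3 at 147 DAP, averaged 56790.0 FPKM there and 3520.0 FPKM at 91 DAP. These abundant genes were picked for their levels after the values had been seen, and only the glutelin JreChr03G12612, ninth at 91 DAP, carries an annotation.

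Enzymes annotated in the flavonoid pathway were higher at 147 DAP or not called. Of 13 genes in this list, 7 passed the filter on low values. Of these 7, 5 were higher (71.4%, against 20.6% of all tested genes) and 0 lower. The median log2 change of the 7 was 1.79, against -0.10 over all tested genes. Chalcone synthase (JreChr02G10304, on chromosome 2 from 15646385 to 15648212), whose closest Arabidopsis gene AT5G13930 is TT4, had 571, 1088 and 683 FPKM at 147 DAP, against 49.4, 52.2 and 129 FPKM at 91 DAP. The groups did not overlap, and chalcone synthase rose by 3.42 on the log2 scale (standard error 0.38, adjusted p = 5.71e-06). At 119 DAP it had 553, 223 and 529 FPKM, which amounts to 73.7% of the change, but its steps were not shown to differ (step difference -1.62, adjusted p = 0.121). JrANR (JreChr09G12363, on chromosome 9 from 7498722 to 7501474), annotated as leucoanthocyanidin reductase but closest to the Arabidopsis seed coat gene BANYULS, was 7.52 times as high in mean FPKM at 147 DAP as at 91 DAP. It rose by 2.87 on the log2 scale (standard error 0.22, adjusted p = 1.84e-07), and the exact permutation p, taken on both sides, of 3 libraries against 3 was 0.10, the smallest possible. The mean of JrANR rose by nearly the same amount in both steps, 1.36 before and 1.51 after 119 DAP on the log2 scale. By 119 DAP 47.4% of its change was reached. Its 119 DAP libraries had 342, 181 and 344 FPKM, so this even split depends on replicate 2, the lowest.

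The other members of the list that moved are named for flavonoid enzymes, but their closest Arabidopsis genes are not the pathway's own. JreChr11G10794 and JreChr11G10846 are annotated as dihydroflavonol-4-reductase, and both have AT2G23910 as their closest homolog, a relative of cinnamoyl-CoA reductase. JreChr11G10846 had 59.3, 85.1 and 51.5 FPKM at 147 DAP, against 16.1, 18.4 and 18.9 FPKM at 91 DAP (adjusted p = 4.26e-06 for a log2 change of 1.79, standard error 0.19). It had reached 87.3% of this change by 119 DAP and was placed before 119 DAP (step difference -1.34, adjusted p = 0.0164), a placement that was lost without replicate 1 or 3 of 119 DAP (highest adjusted p = 0.0848). JreChr11G10794 was lower throughout, with 12.3, 15.1 and 12.6 FPKM at 147 DAP, against 2.54, 0.584 and 1.10 FPKM at 91 DAP (log2 change 2.65, adjusted p = 1.09e-05). JreChr13G10907, annotated as flavonol synthase or flavanone 3-hydroxylase and closest to AT3G13610, which makes the precursor of the coumarin scopoletin, had 19.2, 13.6 and 20.4 FPKM at 147 DAP and 10.4, 6.68 and 6.18 FPKM at 91 DAP. Its log2 change was 1.11 (adjusted p = 8.04e-04), of which 26.1% was reached by 119 DAP. The leucoanthocyanidin dioxygenase JreChr03G12442 (log2 change -0.01, adjusted p = 0.987) and the glucosyltransferase JreChr15G10826 (log2 change 0.11, adjusted p = 0.623) overlapped between the stages. In the plot of these genes, replicate 2 of 119 DAP, which held the most embryo transcript, is the lowest 119 DAP library of chalcone synthase, JrANR and both reductases. The part of embryo transcript in these lower values was not tested.

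**Figure D2:**
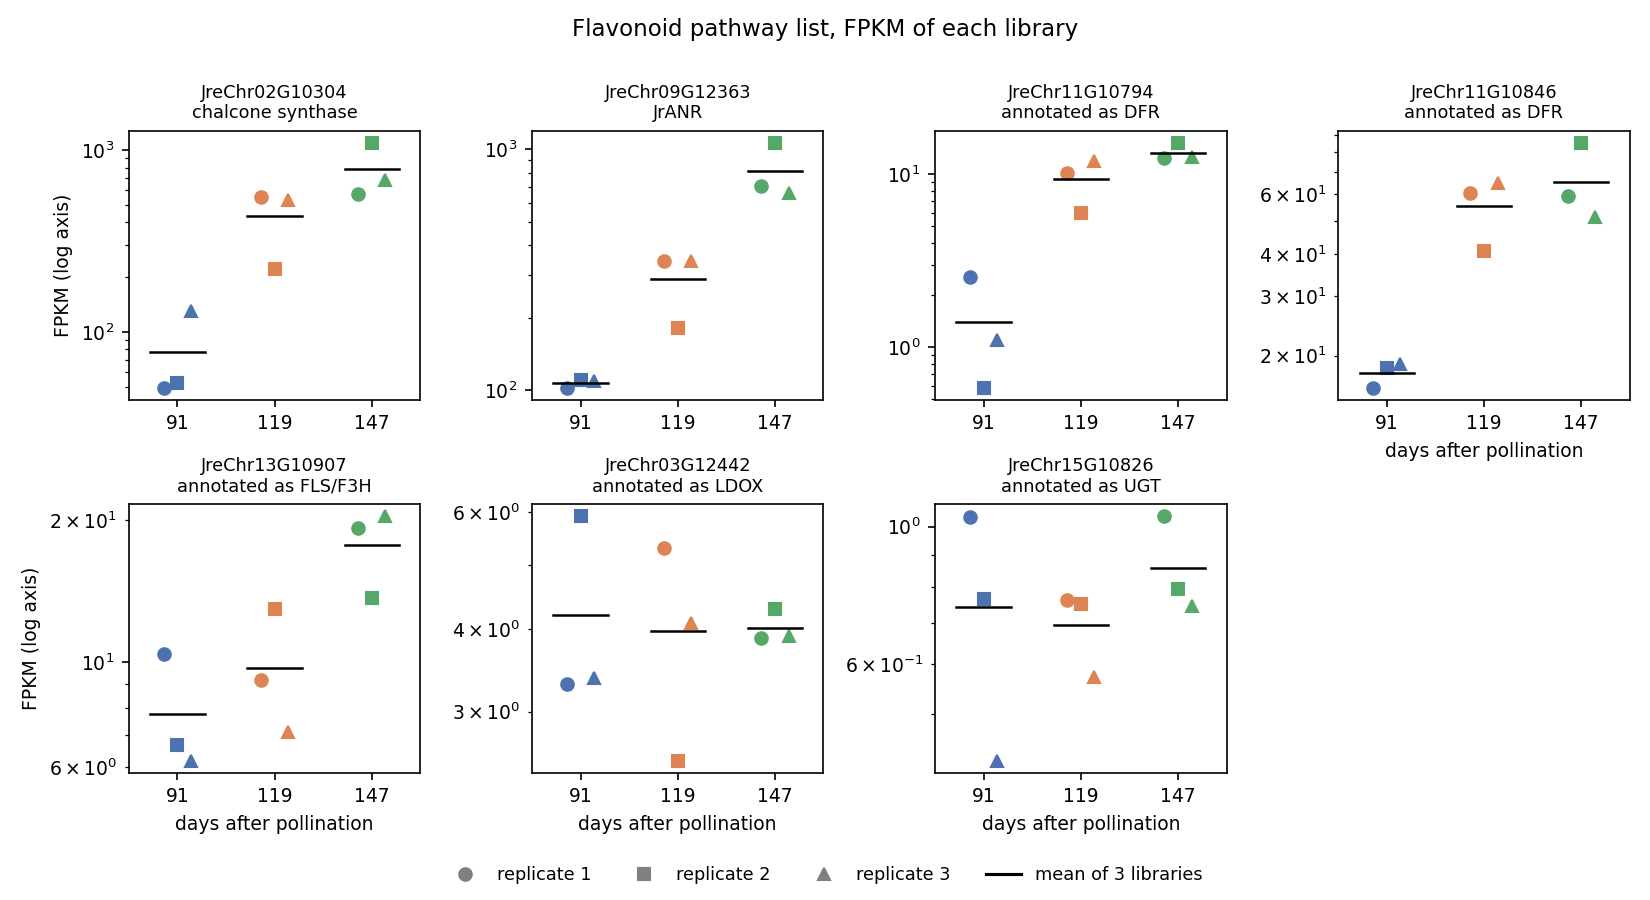
FPKM on a log axis of the 7 tested genes of the flavonoid list at 91, 119 and 147 DAP; symbols mark replicates 1 to 3 and bars the mean of 3 libraries. Every 147 DAP library of chalcone synthase (571 to 1088 FPKM) and JrANR (661 to 1058 FPKM) lies above every 91 DAP library (49.4 to 129 and 103 to 110.2 FPKM).

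Transcription factors of the AP2/ERF family, which bind ethylene- and drought-response elements in other plants, were likewise higher or not called. Of 13 listed, 10 were tested, with a median log2 change of 1.19. At 147 DAP 7 were higher (70.0%, against 20.6% of all tested genes) and 0 lower. JreChr15G12147 and JreChr15G12155 are closest to AT1G46768, the drought-response gene RAP2.1. JreChr15G12147 had 61.9, 38.4 and 78.6 FPKM at 147 DAP, against 3.45, 2.26 and 6.13 FPKM at 91 DAP (log2 change 3.63, standard error 0.37, adjusted p = 2.81e-06), and moved in both steps. JreChr15G12155 had 5.35, 4.02 and 6.77 FPKM at 147 DAP, against 0.370, 0.193 and 0.324 FPKM at 91 DAP (log2 change 2.28, adjusted p = 4.09e-07). Its change was placed after 119 DAP (step difference 1.41, adjusted p = 0.0117; 0.0650 without replicate 3 of 119 DAP). Between 5 and 8 of the 10 were higher when a library was left out. JreChr15G12147 and JreChr15G12155 lie close together and share an annotation, so reads could have been divided between them.

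Other transcription factor families moved both ways. Of 13 homeobox genes tested, 6 were higher (46.2%) and 3 lower (23.1%), against 20.6% and 29.4% of all tested genes. A homolog of WOX11 (JreChr09G10865) had 9.78, 6.66 and 2.80 FPKM at 147 DAP and 1.51, 0.885 and 0.170 FPKM at 91 DAP (log2 change 1.94, adjusted p = 0.0013). The homolog of BLH1 (JreChr13G10577) was lower, with 18.1, 36.7 and 21.0 FPKM at 147 DAP, against 63.4, 73.3 and 64.5 FPKM at 91 DAP (log2 change -1.43, adjusted p = 1.22e-04), and it was placed after 119 DAP (step difference -1.75, adjusted p = 0.00896; 0.0517 with only the 3 stages in the fit). Of 21 MYB genes tested, 4 were higher (19.0%) and 6 lower (28.6%), close to the shares of all tested genes. JreChr09G10873, closest to MYB56, a regulator of seed size in Arabidopsis, had 1.19, 1.88 and 1.62 FPKM at 147 DAP, against 25.2, 22.7 and 21.4 FPKM at 91 DAP (log2 change -3.24, standard error 0.15, adjusted p = 1.72e-09). JreChr16G10330, closest to MYB68, had 14.3, 22.3 and 11.4 FPKM at 147 DAP and 60.3, 84.7 and 95.3 FPKM at 91 DAP (log2 change -2.28, adjusted p = 5.71e-06). At 119 DAP it was at 85.0, 54.4 and 100.4 FPKM. Both falls were placed after 119 DAP, that of JreChr09G10873 not without replicate 1 of 119 DAP (adjusted p = 0.0530). Of 7 NAC genes, 0 were higher and 2 lower (28.6%). One of these, JreChr05G12914, closest to VNI2, a repressor of vessel formation in Arabidopsis, was abundant, with 1019, 1132 and 660.5 FPKM at 147 DAP, against 1707, 1848 and 1488 FPKM at 91 DAP (log2 change -0.87, adjusted p = 0.00253).

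Genes of seed maturation did not move as 1 group. The glutelin JreChr03G12612, a cupin storage protein whose closest Arabidopsis gene AT5G44120 is a seed storage globulin, had 112, 562 and 549 FPKM at 147 DAP, against 7096, 3249 and 5236 FPKM at 91 DAP (log2 change -3.92, standard error 0.76, adjusted p = 6.74e-04). JrFAD2 (JreChr13G11197, on chromosome 13 from 27107807 to 27108955), which desaturates oleic acid to linoleic acid, had 11.3, 26.3 and 19.7 FPKM at 147 DAP, against 319, 202 and 123 FPKM at 91 DAP (log2 change -3.39, adjusted p = 2.30e-04). Its fall was placed after 119 DAP (step difference -3.99, adjusted p = 0.0164), but not without replicate 1 or 2 of 119 DAP (highest adjusted p = 0.0800). The second glutelin, JreChr03G12610, had 250.4, 671 and 1324 FPKM at 147 DAP, and the highest of these overlapped with the 1921, 1160.0 and 1476 FPKM of 91 DAP (log2 change -1.29, adjusted p = 0.0885). It passed the threshold without replicate 2 of 119 DAP or replicate 3 of 147 DAP (adjusted p at most 0.0427).

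The oleosin JreChr12G10222, a coat protein of oil bodies, went the other way. It had 1335, 666 and 1150.0 FPKM at 147 DAP, against 639, 359.9 and 259.5 FPKM at 91 DAP (log2 change 1.36, standard error 0.36, adjusted p = 0.00612). The LEA gene JreChr01G10577, annotated as embryonic protein DC-8, on chromosome 1 from 17637405 to 17638411, had 2888, 1652 and 2895 FPKM at 147 DAP, against 201, 126 and 60.3 FPKM at 91 DAP. It rose by 4.37 on the log2 scale (standard error 0.46, adjusted p = 3.59e-06). With 177, 356 and 149 FPKM at 119 DAP, its change was placed after 119 DAP at an adjusted p of 0.0407 for the step difference, but this was lost in 11 of 18 alternatives, among them the omission of replicate 1 or 2 of 91 DAP, 1 or 3 of 119 DAP, or 1 or 3 of 147 DAP (highest adjusted p = 0.161). A second DC-8 gene, JreChr01G12905, had 42.6, 41.5 and 72.9 FPKM at 147 DAP, against 7.96, 4.81 and 3.03 FPKM at 91 DAP (log2 change 3.12, adjusted p = 5.33e-06). It had already reached 30.8, 53.4 and 24.4 FPKM at 119 DAP and was placed before 119 DAP at an adjusted p of 0.0360, a placement lost in 12 of 18 alternatives, among them the omission of replicate 2 or 3 of 91 DAP, 1 or 2 of 119 DAP, or 1 or 2 of 147 DAP (highest adjusted p = 0.163). At 119 DAP replicate 2 was the highest library of all 6 genes, as the plot of storage, oil and LEA genes shows. From bulk RNA a smaller share of embryo cells in the pool and less of a transcript per cell cannot be told apart.

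**Figure D3:**
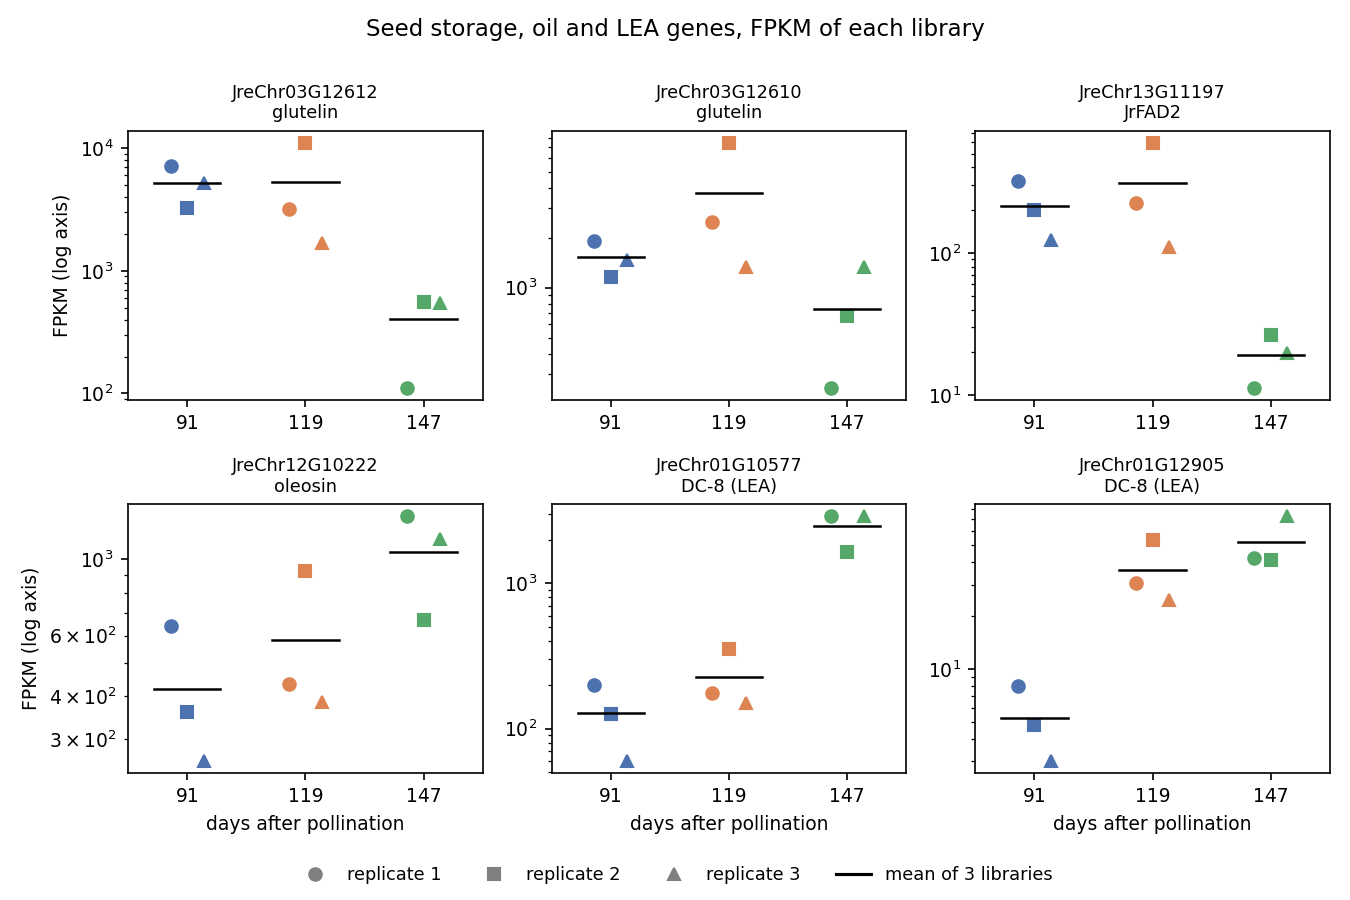
FPKM on a log axis of 4 embryo marker genes and 2 LEA genes at 91, 119 and 147 DAP; symbols mark replicates 1 to 3 and bars the mean of 3 libraries. The glutelin JreChr03G12612 and JrFAD2 are lower in every 147 DAP library than in every 91 DAP library, while the oleosin and both LEA genes are higher.

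The annotated genes with the largest rises include several with a known signal or metabolic role. The inositol oxygenase JreChr03G12026, on chromosome 3 from 36810083 to 36812489, opens a route to the sugar acids of cell wall polysaccharides. It had 287, 169 and 280.4 FPKM at 147 DAP, against 2.49, 2.70 and 12.1 FPKM at 91 DAP (log2 change 5.44, standard error 0.47, adjusted p = 5.84e-07), and rose in both steps, by 3.17 before and 2.27 after 119 DAP. JreChr06G11595 encodes a precursor of phytosulfokine, a sulfated peptide signal, and had 13.7, 9.24 and 14.1 FPKM at 147 DAP, against 0, 0.0627 and 0.0915 FPKM at 91 DAP (log2 change 3.65, adjusted p = 2.08e-08). JreChr15G11057, closest to AT3G25655, an IDA-like peptide of the family that controls abscission in Arabidopsis, had 307, 249 and 212 FPKM at 147 DAP, against 20.1, 22.2 and 14.2 FPKM at 91 DAP (log2 change 3.70, adjusted p = 7.52e-08). The harpin-induced domain gene JreChr05G12191 had 115, 97.2 and 104 FPKM at 147 DAP, against 5.82, 5.25 and 6.55 FPKM at 91 DAP (log2 change 3.95, standard error 0.25, adjusted p = 4.09e-08). Another member of that family, JreChr10G10360, closest to NHL1, moved in the other direction, with 43.9, 43.3 and 37.0 FPKM at 147 DAP, against 279, 318 and 284 FPKM at 91 DAP (log2 change -2.80, standard error 0.11, adjusted p = 5.42e-10). Of the 8 genes of this family tested, 4 were higher (50.0%) and 3 lower (37.5%), against 20.6% and 29.4% of all tested genes.

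A zinc finger, a pair of wall enzymes and a nodulin-like gene were, with the LEA gene JreChr01G10577, the 5 annotated genes with the largest rises placed after 119 DAP. JreChr13G10775, a C2H2 zinc finger gene closest to WIP3, had 55.8, 34.7 and 42.9 FPKM at 147 DAP, against 0.356, 0.411 and 0.955 FPKM at 91 DAP (log2 change 4.85, standard error 0.27, adjusted p = 9.95e-09). At 119 DAP it had 1.79, 1.59 and 3.49 FPKM, so the later step was larger by 2.77 on the log2 scale (adjusted p = 0.00154). A pair of beta-galactosidase genes, whose enzymes trim cell wall galactan, followed this course. JreChr03G11967 had 707, 610.3 and 552 FPKM at 147 DAP, against 50.4, 71.1 and 90.0 FPKM at 91 DAP. Of this rise 20.3% was reached by 119 DAP (step difference 1.88, adjusted p = 0.00877; 0.0513 with only the 3 stages in the fit). Its neighbor JreChr03G11965 had 33.7, 21.7 and 16.0 FPKM at 147 DAP, against 0, 0.0282 and 0.0561 FPKM at 91 DAP (step difference 3.15, adjusted p = 1.92e-04). These 2 genes have the same closest homolog and lie beside each other on chromosome 3, so reads could have been shared between them. The nodulin-like gene JreChr13G10426 averaged 14.3 FPKM at 147 DAP and 0.518 FPKM at 91 DAP, with a step difference of 1.79 (adjusted p = 0.0188) that was lost without replicate 1 or 3 of 119 DAP (highest adjusted p = 0.0795).

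The largest annotated falls placed after 119 DAP included genes with no called change before it. JreChr04G11098, of unknown function, had 0, 1.05 and 0.202 FPKM at 147 DAP, against 369.7, 262 and 77.6 FPKM at 91 DAP. It still had 249, 307 and 155 FPKM at 119 DAP (step difference -7.62, adjusted p = 1.05e-04). JreChr13G10810, closest to AHP1, a phosphotransfer protein of cytokinin signalling in Arabidopsis, had 5.58, 32.5 and 12.9 FPKM at 147 DAP, against 704, 584 and 245 FPKM at 91 DAP (log2 change -5.01, adjusted p = 1.08e-06). With 687, 779.7 and 892 FPKM at 119 DAP, no fall was detected by then (step difference -6.50, adjusted p = 2.12e-04). The granule-bound starch synthase JreChr12G10791 fell less and is not among the largest falls, but was also placed after 119 DAP. It had 5.48, 10.3 and 7.06 FPKM at 147 DAP, against 33.4, 39.8 and 50.5 FPKM at 91 DAP (log2 change -2.31, adjusted p = 2.07e-06). It had 48.7, 34.0 and 61.2 FPKM at 119 DAP, within or above the range of 91 DAP. The synaptotagmin homolog JreChr03G12425 averaged 0.833 FPKM at 147 DAP and 21.9 FPKM at 91 DAP (step difference -2.86, adjusted p = 0.00348). JreChr12G10047, closest to a plasmodesmal callose binding protein, had 1.53, 3.21 and 1.39 FPKM at 147 DAP, against 59.1, 65.2 and 62.9 FPKM at 91 DAP. It fell in both steps, by 1.52 and then by 2.91 on the log2 scale, and the difference of -1.39 (adjusted p = 0.0134) was lost without replicate 3 of 119 DAP (adjusted p = 0.0636).

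Other genes had reached most of their change by 119 DAP. The WNK-type kinase JreChr14G11410 had 29.2, 27.3 and 34.9 FPKM at 147 DAP, against 7.29, 6.02 and 8.76 FPKM at 91 DAP (log2 change 1.92, standard error 0.16, adjusted p = 3.83e-07). With 29.5, 32.6 and 28.5 FPKM it stood at 99.6% of its change at 119 DAP (step difference -1.90, adjusted p = 6.06e-04). A pair of C2H2 zinc finger genes on chromosome 6, both closest to ZAT10, a stress-response repressor in Arabidopsis, did the same, and as close copies they may share reads. JreChr06G11609 had 129.7, 144 and 126 FPKM at 147 DAP, against 22.5, 33.3 and 16.9 FPKM at 91 DAP, and JreChr06G11553 had 35.1, 35.9 and 37.5 FPKM, against 5.58, 7.80 and 5.19 FPKM. They had reached 90.5% and 86.2% of the change by 119 DAP (step differences -1.99 and -1.73, adjusted p = 0.0119 and 0.00522), and the placement of JreChr06G11609 was lost without replicate 1 of 119 DAP (adjusted p = 0.0778). The xyloglucan endotransglucosylase JreChr13G10430, of glycosyl hydrolase family 16, had 402, 469 and 427 FPKM at 147 DAP, against 43.0, 38.9 and 71.2 FPKM at 91 DAP, and had reached 76.9% of its change by 119 DAP (step difference -1.67, adjusted p = 0.0179). Without replicate 1 or 3 of 119 DAP that placement was lost (highest adjusted p = 0.0958), as was the placement of the IDA-like gene JreChr15G11057 before 119 DAP without these or replicate 3 of 147 DAP (adjusted p = 0.0280, and at most 0.105 without a library).

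Of the 5 named falls placed before 119 DAP, 4 were smaller than 1 on the log2 scale. The BTB domain gene JreChr01G13745, closest to BT4, had 51.9, 48.6 and 35.6 FPKM at 147 DAP, against 75.0, 92.2 and 96.9 FPKM at 91 DAP (log2 change -0.95, adjusted p = 1.74e-04). It was at 47.1, 37.5 and 36.2 FPKM by 119 DAP (step difference 1.27, adjusted p = 0.00677). The DnaJ cochaperone JreChr06G11622 had 65.8, 65.3 and 60.2 FPKM at 147 DAP, against 109, 114 and 113 FPKM at 91 DAP (log2 change -0.80, adjusted p = 6.01e-05). By 119 DAP it had 64.0, 58.1 and 66.5 FPKM (step difference 0.85, adjusted p = 0.0127). The lipid transfer protein JreChr13G11259 was the exception, at 0.134, 1.09 and 0.321 FPKM at 147 DAP, against 11.3, 10.8 and 12.2 FPKM at 91 DAP (log2 change -3.08, adjusted p = 2.18e-07). Its step difference of 1.59 (adjusted p = 0.0207) was lost without replicate 1 or 2 of 119 DAP (highest adjusted p = 0.112), and with a pseudocount of 0.1 (adjusted p = 0.304). JreChr12G11424 and JreChr03G12060, a Dicer-like ribonuclease and a MATE transporter, were placed there at adjusted p = 0.0415 and 0.0325. JreChr12G11424 lost its placement without any 1 library other than replicate 3 of 119 DAP and replicate 1 of 147 DAP (highest adjusted p = 0.156). JreChr03G12060 lost it without replicate 3 of 91 DAP, any 1 library of 119 DAP, or replicate 2 or 3 of 147 DAP (highest adjusted p = 0.156).

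Other placements above were lost under these settings too. With only the 3 stages in the fit, those of JreChr09G11293, JreChr13G12088, JreChr11G10150, JreChr11G10846, JreChr15G12155, JreChr09G10873, JrFAD2 (JreChr13G11197), JreChr13G10426, JreChr12G10047, JreChr13G10430, JreChr13G11259, JreChr12G11424 and JreChr03G12060 missed the threshold (adjusted p between 0.0527 and 0.154). With a pseudocount of 0.1, so did those of JreChr15G12155, JreChr13G10426, JreChr06G11609, JreChr15G11057 and JreChr03G12060 (adjusted p between 0.0748 and 0.197).

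**Figure D4:**
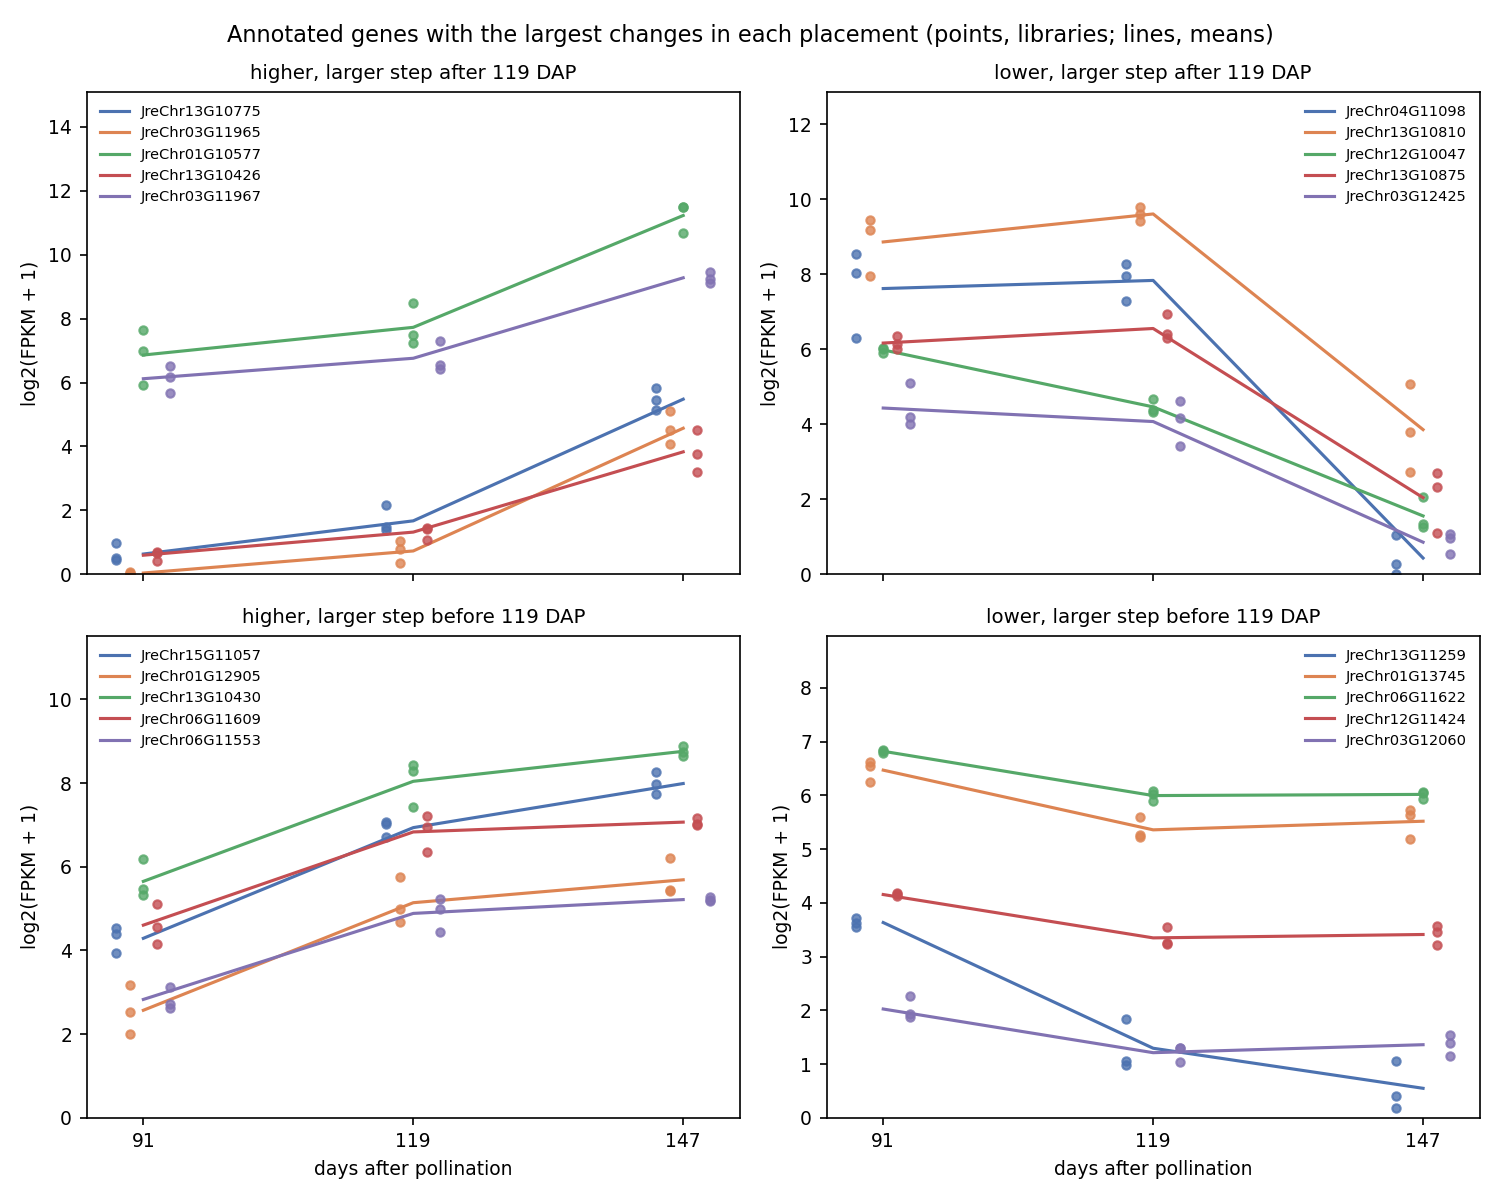
Mean log2(FPKM + 1) at 91, 119 and 147 DAP (lines) and the values of the 3 libraries (points, offset sideways) of the 5 annotated genes with the largest change in each placement. In the upper panels the larger part of each change follows 119 DAP. The part reached by then runs from 34.3% in JreChr12G10047 to none, as in JreChr04G11098 and JreChr13G10810. The mean of JreChr13G10810, which fell by 147 DAP, was higher at 119 DAP than at 91 DAP. In the lower panels 71.5% or more of each change was reached by 119 DAP.

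Of 17 genes of cell division tested, 6 were lower (35.3%, against 29.4% of all tested genes) and 1 higher. This share counts 10 genes with hardly any transcript at either stage. With a filter at a mean FPKM of 5, 7 of the list were tested, 6 lower and 1 higher. In that setting 5275 of all 15971 tested genes were lower. The cyclin JreChr16G10753, closest to CYCD3;1, which drives entry into the cell cycle, had 1.33, 8.14 and 2.31 FPKM at 147 DAP, against 32.2, 29.5 and 32.7 FPKM at 91 DAP (log2 change -2.97, standard error 0.35, adjusted p = 1.08e-05). The alpha-tubulin JreChr06G11530 had 49.5, 70.9 and 44.5 FPKM at 147 DAP, against 153, 159 and 153 FPKM at 91 DAP (log2 change -1.51, adjusted p = 2.60e-06). The higher gene was the histone gene JreChr13G10876, with 93.6, 58.4 and 120.4 FPKM at 147 DAP, against 11.8, 7.89 and 7.19 FPKM at 91 DAP (log2 change 3.17, adjusted p = 4.51e-04). The remaining 10 genes, cyclins and kinesins, averaged below 1 FPKM at both stages and passed the filter through earlier ones, so a change in them could hardly be measured. Of 33 ribosomal protein genes tested, 3 were higher and 9 lower, with a median log2 change of -0.14, close to that of all genes. With median-ratio scaling the counts were 7 and 9, so no direction is read from them.

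Sugar and starch genes moved both ways. The sucrose synthases JreChr07G10958 and JreChr07G10968, neighbors both closest to SUS3 that may share reads, rose by 0.92 and 0.75 on the log2 scale (adjusted p = 7.22e-05 and 1.51e-04). JreChr07G10958 had 37.0, 45.2 and 38.0 FPKM at 147 DAP, against 19.6, 19.0 and 23.5 FPKM at 91 DAP. The trehalose-phosphate phosphatase JreChr07G11790 was lower, with 2.30, 8.40 and 3.90 FPKM at 147 DAP, against 38.9, 58.9 and 72.3 FPKM at 91 DAP (log2 change -3.39, adjusted p = 3.80e-06). Of the 11 genes of this list tested, 2 were higher (18.2%) and 4 lower (36.4%), against 20.6% and 29.4% of all tested genes. The starch synthase JreChr12G10791 is one of the 4. In the list of transporters, 5 of 16 were higher and 5 lower (31.25% each). The aquaporin JreChr10G10281, closest to NIP1;2, had 38.4, 25.3 and 23.8 FPKM at 147 DAP, against 860.0 and 625 FPKM in replicates 1 and 2 of 91 DAP and 79.4 FPKM in replicate 3 (log2 change -3.57, standard error 0.65, adjusted p = 3.97e-04).

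Small heat shock proteins and protease inhibitors were among the rises. Of 14 heat shock and chaperone genes tested, 6 were higher (42.9%) and 3 lower (21.4%), against 20.6% and 29.4% of all tested genes. The class I small heat shock protein JreChr14G11646 had 109, 99.3 and 146 FPKM at 147 DAP, against 22.1, 25.8 and 14.2 FPKM at 91 DAP (log2 change 2.47, standard error 0.47, adjusted p = 5.67e-04), and its neighbor JreChr14G11651 averaged 43.4 FPKM at 147 DAP and 8.45 FPKM at 91 DAP (log2 change 2.27, adjusted p = 9.60e-04). They had reached 1.37% and 11.5% of their change by 119 DAP, but the steps were not shown to differ (adjusted p = 0.0631 and 0.169), and as neighbors with 1 closest homolog they may share reads. Of 11 tested genes for cysteine proteases, their inhibitors, senescence and autophagy, 4 were higher (36.4%) and 0 lower. JreChr10G12032, which carries a senescence regulator domain, had 248, 194 and 171 FPKM at 147 DAP, against 15.1, 17.4 and 52.3 FPKM at 91 DAP (log2 change 3.02, adjusted p = 1.30e-05). The cystatin JreChr01G10940, an inhibitor of cysteine proteases, had 227, 126 and 264 FPKM at 147 DAP, against 27.6, 24.3 and 5.87 FPKM at 91 DAP (log2 change 3.53, adjusted p = 2.44e-04). Its highest 119 DAP library was replicate 2, with 173 FPKM against 47.2 and 33.9 FPKM in the others.

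Hormone genes were lower in 6 (40.0%) and higher in 2 (13.3%) of 15 tested. Over all tested genes 29.4% were lower and 20.6% higher. The ethylene receptor JreChr02G10909, closest to ETR2, had 33.3, 42.5 and 33.3 FPKM at 147 DAP, against 95.9, 117 and 140.0 FPKM at 91 DAP (log2 change -1.66, standard error 0.20, adjusted p = 1.24e-05). Of 6 cytochromes P450 tested, 3 were higher (50.0%) and 1 lower (16.7%). The lower one, JreChr16G10942, closest to ent-kaurene oxidase of gibberellin synthesis, had 24.2, 38.4 and 38.1 FPKM at 147 DAP, against 91.7, 107 and 137 FPKM at 91 DAP (log2 change -1.72, adjusted p = 5.89e-06). Its fall was placed after 119 DAP (step difference -1.24, adjusted p = 0.0235), but not without replicate 1 or 3 of 119 DAP (highest adjusted p = 0.105) or with only the 3 stages in the fit (adjusted p = 0.0913). Among the 13 UDP-glycosyltransferases tested, 5 were higher (38.5%) and 2 lower (15.4%). JreChr01G10877, closest to an auxin glucosyltransferase of Arabidopsis, had 12.9, 9.73 and 10.1 FPKM at 147 DAP, against 2.02, 0.751 and 0.600 FPKM at 91 DAP (log2 change 2.54, adjusted p = 3.68e-06).

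Enzymes of surface lipids and the cell wall moved both ways. The acyltransferases JreChr09G11569 and JreChr09G11589, neighbors that may share reads and closest to GPAT6, which makes cutin precursors, had log2 changes of 1.60 and 1.15 (adjusted p = 3.16e-04 and 4.38e-04). JreChr09G11589 had 5.71, 6.47 and 5.23 FPKM at 147 DAP, against 1.62, 1.82 and 2.89 FPKM at 91 DAP. The GDSL lipase JreChr10G10168 was lower, with 0.765, 0.445 and 0.558 FPKM at 147 DAP, against 9.11, 15.2 and 38.5 FPKM at 91 DAP (log2 change -3.56, adjusted p = 3.59e-06). Of the 16 surface lipid genes tested, 4 were higher and 1 lower, and of the 11 cell wall genes, 4 were higher and 3 lower. The shares over all tested genes were 20.6% higher and 29.4% lower. The pectinesterase JreChr03G12057, which acts on pectin, had 1.47, 0.170 and 1.74 FPKM at 147 DAP, against 12.3, 13.4 and 15.1 FPKM at 91 DAP (log2 change -2.87, standard error 0.24, adjusted p = 4.97e-07). The glycosyl hydrolase JreChr13G10442, of family 3, had 3.80, 3.37 and 3.08 FPKM at 147 DAP, against 157, 153 and 102 FPKM at 91 DAP (log2 change -4.94, standard error 0.18, adjusted p = 3.07e-10). Of 25 listed genes for phenylpropanoid and lignin enzymes, 4 passed the filter, with 0 higher and 1 lower, the O-methyltransferase JreChr10G12207 (log2 change -0.83, adjusted p = 0.0192; lost without replicate 1 or 2 of 91 DAP or 1 or 3 of 147 DAP, highest adjusted p = 0.0968).

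**Figure D5:**
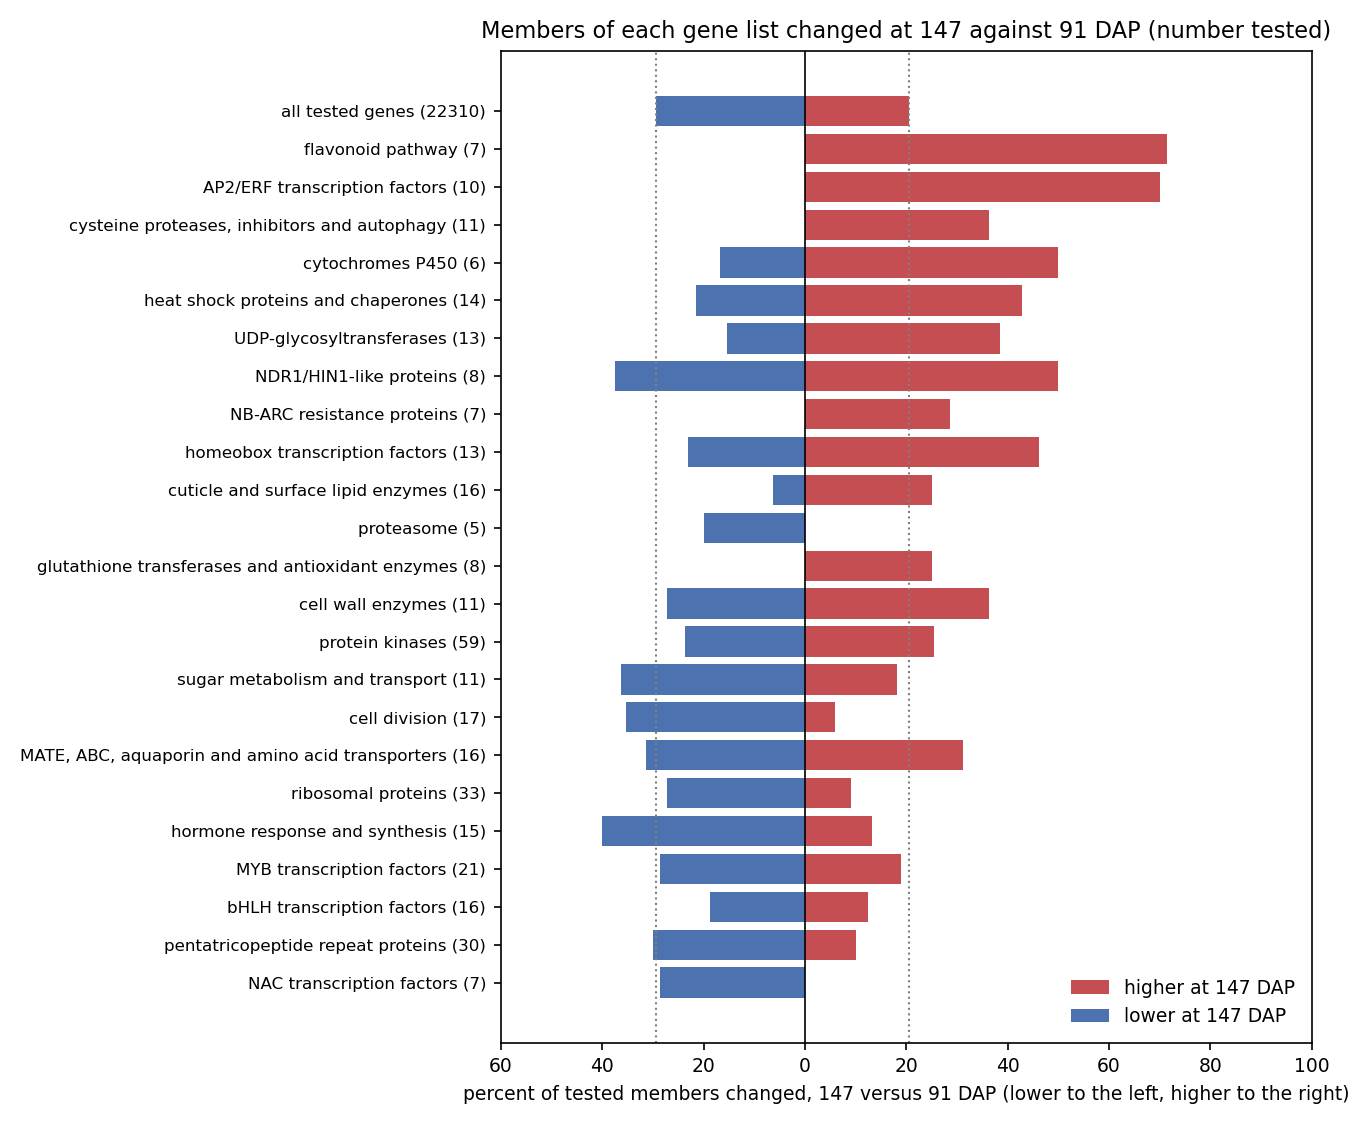
Percent of the tested members of each gene list called higher (right) or lower (left) at 147 DAP than at 91 DAP, with the number tested in parentheses and lists ordered by their median log2 change; dotted lines give the percentages over all 22310 tested genes, 20.6% higher and 29.4% lower. The flavonoid (7 tested) and AP2/ERF (10 tested) lists hold 5 and 7 higher genes and 0 lower.

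Set against the 20.6% of all tested genes that were higher and the 29.4% that were lower, several large lists had these counts, as the plot of lists shows. Of 59 protein kinases 15 were higher and 14 lower (median log2 change -0.02). Of 30 pentatricopeptide repeat proteins, which act on organelle RNA, 3 were higher and 9 lower (median -0.29). Of 16 bHLH factors 2 were higher and 3 lower. The chlorophyll a/b binding protein JreChr04G11926 had 67.6, 54.7 and 49.1 FPKM at 147 DAP, against 23.2, 24.5 and 59.2 FPKM at 91 DAP. These overlapped, and its adjusted p of 0.0492 missed the threshold in 12 of 18 alternatives, among them without any 1 library other than replicate 3 of 91 DAP and replicate 2 of 119 DAP (highest adjusted p = 0.193). Its relative JreChr10G10089 had 1.89 to 2.28 FPKM at 147 DAP and 0.910 to 2.47 FPKM at 91 DAP (adjusted p = 0.470).

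Of the other genes that the study names by identifier, the chloride channel JreChr03G12424 was lower, with 10.5, 20.1 and 11.8 FPKM at 147 DAP, against 32.1, 34.4 and 34.3 FPKM at 91 DAP (log2 change -1.24, standard error 0.18, adjusted p = 6.03e-05). The GRAM domain gene JreChr01G13585 had 34.5, 30.9 and 35.9 FPKM at 147 DAP, against 29.3, 24.8 and 22.2 FPKM at 91 DAP (log2 change 0.40, adjusted p = 0.0127). Its call was lost without replicate 3 of 91 DAP or of 147 DAP (highest adjusted p = 0.0554). The receptor-like gene JreChr06G11560 overlapped between the stages, with 1.90 to 2.90 FPKM at 147 DAP and 1.81 to 3.53 FPKM at 91 DAP.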

How the data were processed

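The authors pooled 7 nuts per library, used HISAT2 2.1.0 to align reads to an own J. regia assembly and StringTie 1.3.5 to quantify genes, and deposited FPKM values for 39414 genes, 1 column per library. The build's name is not given in the sources used here, and coordinates are those of the deposited table. Read counts per library are unknown. The steps between low values give each library's depth relative to the median one (0.856 to 1.15), but not the counting error of a value. Libraries of 1 stage correlated across genes with r between 0.964 and 0.989, and no 2 were identical.

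From the deposited FPKM, log2(FPKM + 1) was fitted with limma 3.58.1 in R 4.3.3 (lmFit, eBayes with trend), with 1 coefficient per stage and all 15 libraries, for genes that reached 1 FPKM in 3 or more libraries. Contrasts were 147 minus 91 DAP, 119 minus 91 DAP, 147 minus 119 DAP, and the later minus the earlier step. P-values were adjusted over 22310 genes by the Benjamini-Hochberg method. The fit was tested on simulated data. Tables and figures were made in Python 3.11.15 with pandas 2.3.3, numpy 2.4.6 and matplotlib 3.10.9.

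As alternatives, the pseudocount was set to 0.1, values were quantile-normalized, rescaled to equal sums (TPM) or scaled by median ratios, the filter was dropped or set to a mean FPKM of 5, and eBayes was run without trend. Further alternatives were only the stages compared, the replicate number as a block, a minimum absolute log2 change of 1, placement from the calls of single steps, and each of the 9 libraries left out.

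Names and Arabidopsis homologs are from the study's supplementary gene tables, which cover 4583 of the 39414 genes, and 2 of these tables were at hand only in part. The RefSeq gene table matched 0 identifiers. Named genes were all members of the flavonoid, embryo storage and photosynthesis lists, in each other list the 2 largest rises and 2 largest falls among called genes, the 5 largest rises and falls over all genes and the 10 over annotated genes without overlap, the 5 largest of each placement and direction among annotated genes, and genes the study names by identifier. A selection of these is described. The comparison, the members and the lists were chosen with earlier results of these data known. No gene or protein sequence is shown.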

Additional observations from a re-analysis of the deposited data

How the results depend on the processing

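The count of genes changed between 147 and 91 DAP lay between 8583 and 11508 over the alternatives, except that 5039 genes (2493 higher, 2546 lower) had an absolute log2 change of at least 1. It lay between 9684 and 11487 with 1 library left out. Of the 11157 genes, 9401 (84.3%) were also called in the same direction when the fit held the 91 and 147 DAP libraries alone, and 10249 (91.9%) with median-ratio scaling. Among genes called in both fits, 0 changed direction. With this scaling 5614 genes were higher and 5647 lower.

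The placement is the less stable result. With only the 3 stages in the fit, 1142 genes were placed in place of 2255, 379 higher and 514 lower after 119 DAP and 139 higher and 110 lower before. In the same setting 2462 genes changed between 119 and 91 DAP (1317 higher, 1145 lower). Quantile normalization placed 370 lower genes before 119 DAP in place of 242. Calls from the single steps placed 6892 genes, 1952 higher and 3148 lower after and 857 higher and 935 lower before 119 DAP. Without 1 library the genes placed numbered 1315 (without replicate 1 of 119 DAP) to 2769 (without replicate 2 of 147 DAP), those after 119 DAP 495 to 829 higher and 523 to 1479 lower, and those before 148 to 286 higher and 138 to 259 lower. Without replicate 2 of 119 DAP, which holds the most embryo transcript, 2085 genes were placed. Between 119 and 91 DAP the change was called in 2612 to 4320 genes (1402 to 2288 higher, 1210 to 2032 lower), fewest without replicate 2 of 91 DAP.

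Of 115 named genes called between 147 and 91 DAP, 104 passed in every alternative in which they were tested. Of 48 that were placed, 19 kept their placement in every such alternative. The minimum absolute log2 change and the placement from calls of single steps were not applied to named genes. Named genes removed by the filter on mean FPKM were not tested in that setting. Log2 changes that changed sign belong to genes that were not called. These are JreChr03G12442 (0.022 with quantile normalization, 0.087 with median-ratio scaling and -0.13 to 0.21 without 1 library), JreChr04G11920 (0.072 with median-ratio scaling, -0.13 to 0.055 without 1 library) and, without 1 library, JreChr06G11560 (-0.31 to 0.032), JreChr10G10089 (-0.049 to 0.38) and JreChr15G10826 (-0.032 to 0.23).

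Replicate numbers were not treated as pairs, and the labels do not say whether same-numbered libraries belong together. Deviations of same-numbered libraries from their stage means correlated with r between -0.40 and 0.31. Libraries with different numbers were not compared in this way, so these values cannot show whether a pairing exists. With the replicate number as a block, 10803 genes were called (4483 higher, 6320 lower) and 1992 placed. Depth is unknown, so differences of genes near 0 FPKM were not interpretable, and 3 pools per stage limit the precision.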
